A study of Rattus norvegicus with 10 samples.

Results

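The genes Dnase1, Gp2, Clu and Csap1 were examined in 10 rat lacrimal glands, the glands that make the watery part of the tear film. They are 4 of the 4736 genes that the array's platform annotation names by a single symbol, and 5 probe sets measure them, 2 for Dnase1 and 1 for each of the others. They were chosen on their measured levels, which set contralateral 1, the sham gland and experimental 1 apart from the other 7 glands, so those levels are given as a description with no test. One Affymetrix array was hybridised with total RNA of each gland. Per the labels, 5 denervated glands (experimental 1 to 5) were taken 7 days after the greater superficial petrosal nerve was cut, and 3 contralateral control glands (contralateral 1 to 3) at the same time. A sham gland (n = 1) was taken 7 days after a sham operation, and 1 gland is labelled normal and unoperated (n = 1). The descriptions of the contralateral glands place them on the side of the experimental gland, and the titles were followed here. The labels name no strain, sex, age or number of animals, so any p-value reflects spread among these arrays that may be technical in part.

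The greater superficial petrosal nerve carries parasympathetic fibres on their way to the lacrimal gland, where acetylcholine drives acinar cells to release stored protein and fluid. All 4 genes encode proteins that leave the cell or sit on its secretory granules. Dnase1 is a secreted endonuclease that cuts DNA outside cells and is made by several exocrine glands. Gp2 is a membrane-anchored glycoprotein of zymogen granules, best known from the pancreas and related to uromodulin. Clu (clusterin, or apolipoprotein J) is a secreted chaperone known to rise in many stressed or regressing epithelia. Csap1 is common salivary protein 1, a secreted protein described in rat salivary glands.

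Promoter sequences are shown because the members were chosen for setting the same 3 glands apart, Dnase1 by high and the others by low levels. They are the 250 bases before the RefSeq transcript start in build GRCr8, 5′ to 3′ on the gene's strand, for Dnase1, Gp2 and Csap1. The promoter sequences at hand held no entry for Clu. Capitals mark TATAAA and CANNTG (an E-box) on either strand.

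Dnase1, chr10:12008245-12008494, minus strand: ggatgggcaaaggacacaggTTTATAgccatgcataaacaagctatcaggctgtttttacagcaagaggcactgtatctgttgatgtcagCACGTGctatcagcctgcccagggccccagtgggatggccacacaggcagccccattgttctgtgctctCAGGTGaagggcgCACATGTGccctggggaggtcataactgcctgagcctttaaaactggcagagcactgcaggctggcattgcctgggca
Gp2, chr1:183243955-183244204, minus strand: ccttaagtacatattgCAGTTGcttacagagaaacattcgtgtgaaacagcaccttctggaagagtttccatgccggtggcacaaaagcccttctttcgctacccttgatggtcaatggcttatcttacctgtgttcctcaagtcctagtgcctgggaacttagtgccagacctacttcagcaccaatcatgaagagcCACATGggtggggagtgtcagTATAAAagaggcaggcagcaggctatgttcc
Csap1, chr10:13418692-13418941, plus strand: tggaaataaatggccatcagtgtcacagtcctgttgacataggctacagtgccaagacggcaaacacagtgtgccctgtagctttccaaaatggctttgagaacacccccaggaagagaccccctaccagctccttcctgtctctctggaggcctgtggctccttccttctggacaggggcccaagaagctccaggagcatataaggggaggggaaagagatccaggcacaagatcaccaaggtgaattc

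The Gp2 window held TATAAA 31 bases before the start, on the gene's own strand, and E-boxes 234 and 52 bases before it. The Dnase1 window held TATAAA on the opposite strand, 230 bases before the start. It held 4 E-boxes, the overlapping pair in CACATGTG included. The Csap1 window held neither. TATAAA was found in 12.9% and CANNTG in 65.5% of all 33469 promoter windows of this length, both strands counted. AGAACA, part of the element that glucocorticoid and androgen receptors bind, was found once each in the Dnase1 and Csap1 windows and not in that of Gp2, against 17.5% of all windows. The E-box CAGCTG was in none of the 3 windows, against 12.0% of all. The AP-1 motif TGANTCA was also in none, against 6.34% of all. A match describes letters only.

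Dnase1, the secreted endonuclease, varied most of the members at its second probe set (2620-fold) and widely at its main one. The main probe set, U76635mRNA_g_at, had deposited intensities of 621186 in contralateral 1, 721537 in the sham gland and 329146 in experimental 1. In the other glands it had 2984 in contralateral 2, 6542 in contralateral 3, 11714 in the unoperated gland, 13578 in experimental 2, 1514 in experimental 3, 761.5 in experimental 4 and 15271 in experimental 5. The former 3 glands, a contralateral, a sham and a denervated one, lay at least 21.6-fold above every other gland, and the highest gland was 948-fold above the lowest. The second probe set, U76635mRNA_at, was designed on the same mRNA, so it is no independent measurement. It gave 438126, 465066 and 231646 in contralateral 1, sham and experimental 1, and from 177.5 (experimental 4) to 21433 (unoperated), with a median of 5360, in the other 7. Both probe sets placed the same 3 glands on top and experimental 4 and 3 lowest. They ordered some glands differently: the unoperated gland was the highest of the other 7 at the second probe set and lay below experimental 5 and 2 at the main one.

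Gp2, the granule membrane glycoprotein, ran the other way. Its intensities were 631 in contralateral 1, 429 in the sham gland and 385 in experimental 1. They were 5447 in contralateral 2, 6379 in contralateral 3, 6688 in the unoperated gland, 5208 in experimental 2, 7645 in experimental 3, 11863 in experimental 4 and 14979 in experimental 5. The 7 glands with more Gp2 lay within 2.88-fold of each other, and the lowest of them was 8.25-fold above contralateral 1, the highest of the remaining 3.

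Clu, the secreted chaperone, was lowest in the same 3 glands. It measured 11466.5 in contralateral 1, 17410 in the sham gland and 17647 in experimental 1. In the other control glands it measured 183388 (contralateral 2), 112384 (contralateral 3) and 87526 (unoperated). In experimental 2, 3, 4 and 5 it measured 131398, 301996, 212579 and 108047. The 7 glands spanned 3.45-fold and the other 3 spanned 1.54-fold, with a gap of 4.96-fold between them. Its probe set, M64733mRNA_s_at, is of a type that can also bind related transcripts.

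Csap1, the salivary protein gene, was lowest in contralateral 1 (66, under the floor of 156.2 used for logarithms), the sham gland (397) and experimental 1 (670). Contralateral 2 and 3 and the unoperated gland had 5755, 3277 and 4022, and experimental 3 and 4 had 8686 and 7714. Experimental 2 and 5 stood far above all of these with 81349.5 and 103875. Among the 7 glands outside the low set Csap1 thus varied 31.7-fold, against 2.88-fold for Gp2 and 3.45-fold for Clu. Dnase1 also varied widely among the same 7 glands, 20.1-fold at its main probe set, and there experimental 5 and 2 were the highest for both genes. At the low end the order differed: experimental 4 and 3 were lowest for Dnase1, and contralateral 3 and the unoperated gland for Csap1.

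**Figure D1:**
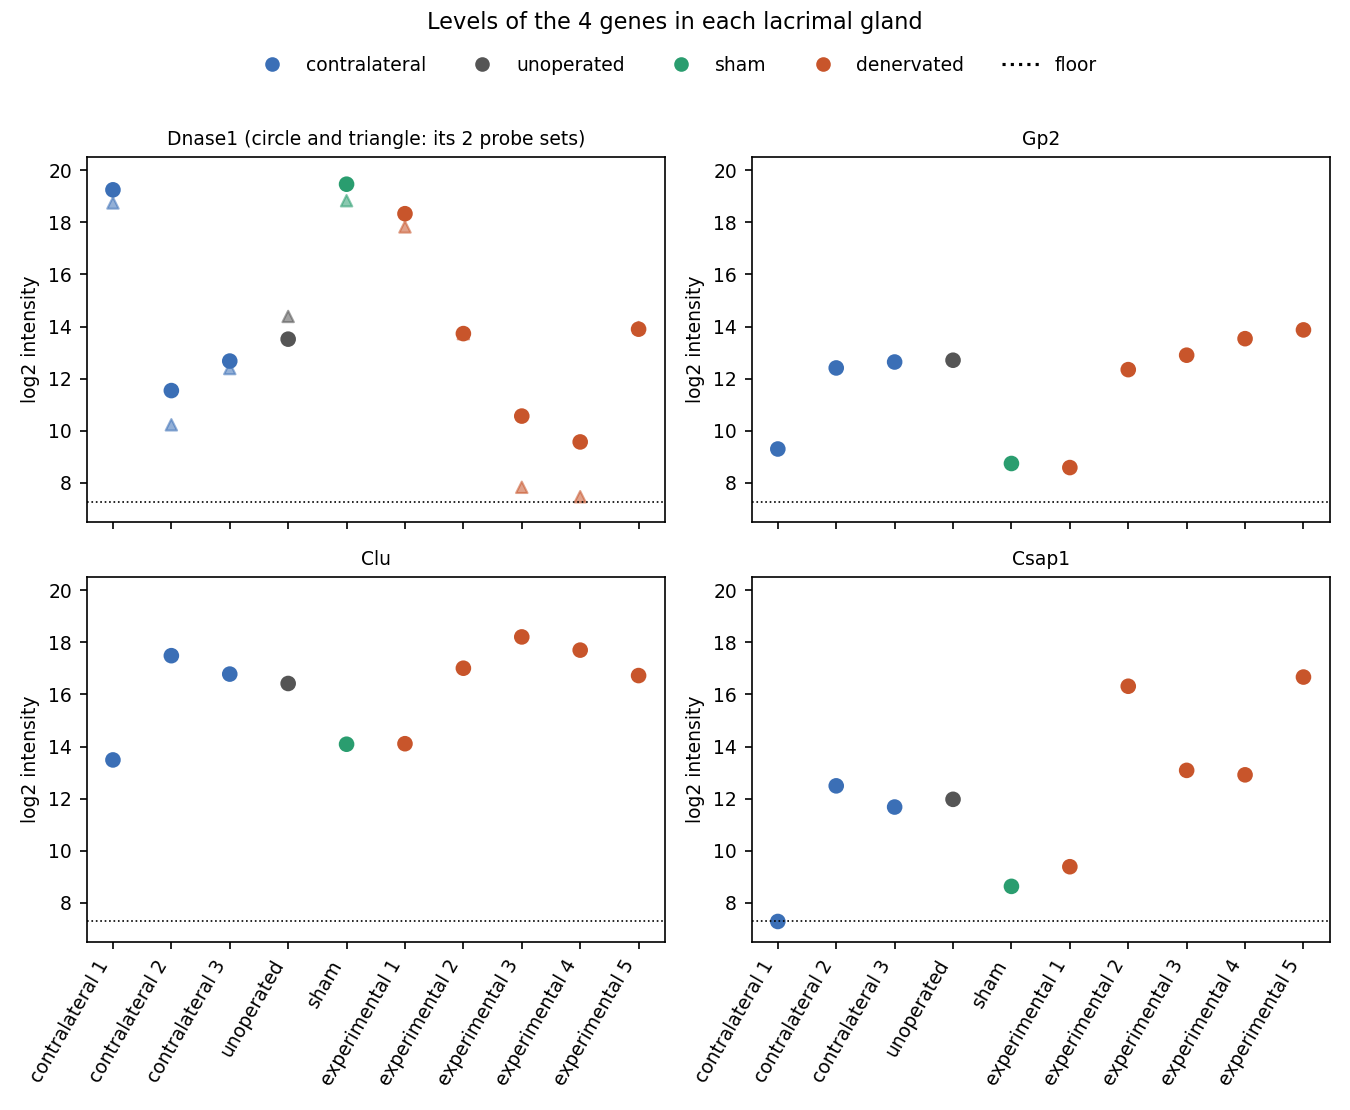
Log2 intensity (vertical axis) of each gene in each of the 10 glands (horizontal axis), coloured by group, with the floor of 156.2 as a dotted line; triangles are the second Dnase1 probe set. Contralateral 1, sham and experimental 1 are highest for Dnase1 and lowest for Gp2, Clu and Csap1, and experimental 2 and 5 are highest for Csap1.

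Over the tested probe sets, 13.6% of 6118 had no overlap between contralateral 1, sham and experimental 1 and the other 7 glands, 556 higher (9.09%) and 273 lower (4.46%) in those 3. The rule used this contrast, so nothing is read from the count or from the places and gaps that follow. Ordered by the gap between the nearest glands of each side on the log2 scale, the Dnase1 probe sets took places 1 and 2 among the higher ones, with gaps of 4.43 and 3.43. Gp2, Clu and Csap1 took places 1, 4 and 5 among the lower ones, with gaps of 3.05, 2.31 and 2.29. The gene next after Dnase1 that carries a single symbol, the kinase Cdk18, had a gap of 1.97. Between Gp2 and Clu lay the circadian transcription factor Dbp (2.66) and the smooth muscle myosin Myh11 (2.54), and after Csap1 the iron-binding secreted protein Lcn2 (2.15).

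Median intensity over all probe sets was 766 to 979 on the 3 arrays that stand apart and 553.5 to 871 on the other 7. The share of probe sets at or under the floor was 12.8% to 17.5% on the 3 and 18.0% to 26.5% on the 7. For GAPDH, the log2 ratio between the control probe sets at its 3′ and 5′ ends, a measure of RNA integrity, was -0.64 to -0.18 on the 3 and 0.01 to 0.35 on the 7. For beta-actin the ranges overlapped, 0.61 to 0.95 against 0.19 to 1.14, as they did for hexokinase, -1.33 to 2.23 against -0.23 to 1.65. The part of these differences in the members' levels was not tested.

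The comparison of denervated with control glands asks what loss of the nerve changed. Csap1 had the largest difference of the members. On the log2 scale it averaged 13.67 ± 2.97 (SD, n = 5) after denervation against 10.41 ± 2.31 (SD, n = 5) in the controls, a difference of 3.26 ± 1.27 (SE; 95% interval 0.53 to 5.99). It did not pass the test across all probe sets (limma, unadjusted p = 0.0225, adjusted p = 0.451). Experimental 1, with 670, lay below contralateral 2, contralateral 3 and the unoperated gland, so the groups overlapped. Without the sham gland, contralateral 1 and experimental 1 the 4 denervated glands had 7714 to 103875 and the 3 control glands 3277 to 5755. The glands left out are the 3 lowest for Csap1 and were picked by the members' own levels. For every member this choice narrows the spread. The SE and p-value of a fit without these glands therefore do not measure the spread among all glands. Among the remaining 7 the groups did not overlap, which follows in part from that choice. The log2 difference there was 2.70 ± 0.82 (limma adjusted p = 0.225). In this smaller set 12.6% of tested probe sets had no overlap, 6.42% with denervated glands higher and 6.15% lower, and limma's unadjusted threshold of 0.05 was passed by 6.77% upward, Csap1 among them, and 4.95% downward. Leaving out experimental 1 alone, which leaves contralateral 1 and the sham gland low among the controls, gave 4.33 (limma adjusted p = 0.0646). Over all single glands left out the difference was 2.48 to 4.33.

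Dnase1 averaged 13.22 ± 3.43 (SD, n = 5) after denervation and 15.29 ± 3.78 (SD, n = 5) in the controls on the log2 scale. The log2 difference was -2.07 ± 1.72 (SE; 95% interval -5.75 to 1.61; limma adjusted p = 0.712), and -2.75 ± 1.97 at the second probe set (adjusted p = 0.659). Without contralateral 1, sham and experimental 1, picked by the members' own levels, it was -0.64 ± 0.93 and -1.59 ± 1.55 (limma adjusted p = 0.832 and 0.725). The highest denervated gland, experimental 1, was above 3 of the controls, and experimental 3 and 4 were below all of them. Without experimental 1 alone, which leaves contralateral 1 and the sham gland among the controls, the difference was -3.35 ± 1.54 (95% interval -6.66 to -0.04; limma adjusted p = 0.272), and -4.17 ± 1.79 at the second probe set (adjusted p = 0.248).

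Gp2 averaged 12.25 ± 2.13 (SD, n = 5) after denervation and 11.16 ± 1.96 (SD, n = 5) in the controls, a log2 difference of 1.09 ± 0.99 (95% interval -1.04 to 3.21; limma adjusted p = 0.733). Without the 3 glands that stand apart it was 0.58 ± 0.34 (limma adjusted p = 0.544), with the spread narrowed by that choice of glands. Without experimental 1 alone, which leaves contralateral 1 and the sham gland low among the controls, it was 2.00 ± 0.77 (95% interval 0.35 to 3.66, limma adjusted p = 0.198). With the number in the titles as a block, which takes contralateral and experimental 1 to 3 alone, it was -0.17 ± 0.33 (limma adjusted p = 0.912), so its direction is not settled. Clu had 16.75 ± 1.59 (SD, n = 5) and 15.65 ± 1.76 (SD, n = 5), a log2 difference of 1.10 ± 0.81 (95% interval -0.65 to 2.84; limma adjusted p = 0.671), and 0.51 ± 0.43 without the 3 glands (adjusted p = 0.670). Leaving out experimental 1 alone, with contralateral 1 and the sham gland kept, gave 1.76 ± 0.70 for Clu (95% interval 0.25 to 3.26, limma adjusted p = 0.217). With all 10 glands the intervals of Dnase1, Gp2 and Clu hold changes in both directions, and these data do not show that the levels were equal.

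No probe set passed in this comparison, 0 of 6118 (0%), while limma's unadjusted p was under 0.05 for 307 with higher (5.02%) and 285 with lower levels (4.66%). Of the 5 member probe sets, that of Csap1 was among the 307. The groups were fully separate at 1.67% of tested probe sets, 0.637% higher and 1.03% lower after denervation, none of them a member.

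**Figure D2:**
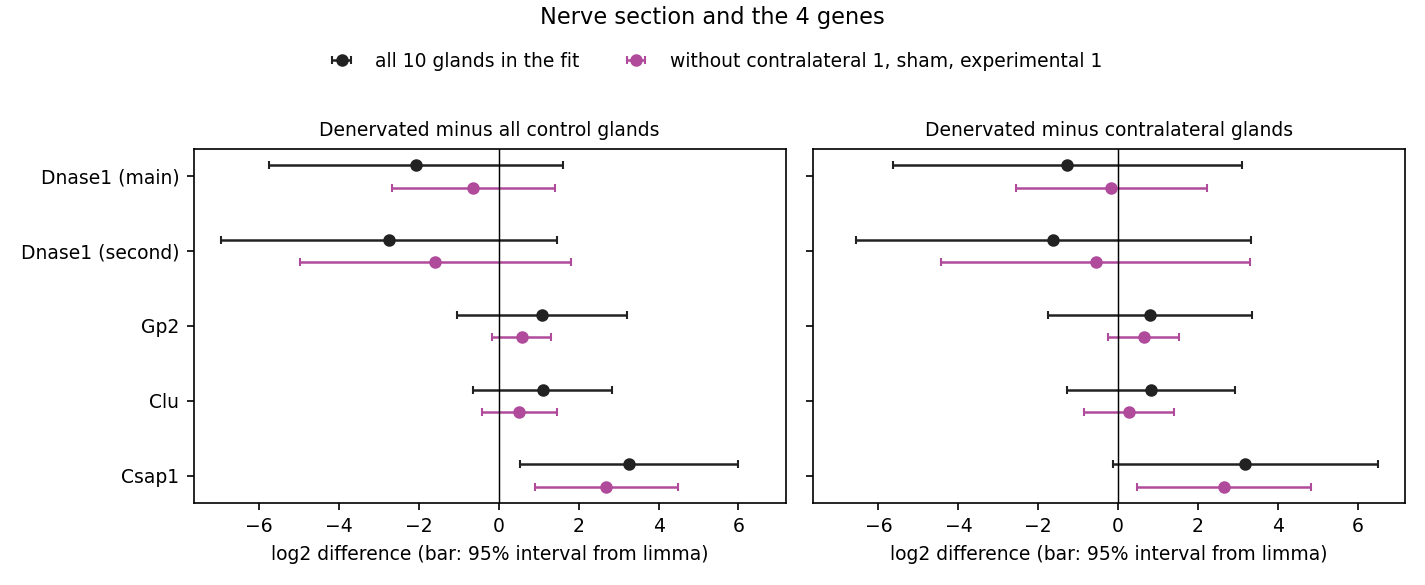
Log2 difference (horizontal axis) of each member's probe set (vertical axis) between denervated and all control glands (left) and contralateral glands (right), with 95% intervals from limma; black points use all 10 glands and purple points leave out contralateral 1, sham and experimental 1. The intervals of Dnase1, Gp2 and Clu cross 0 in both panels, and that of Csap1 with all controls runs from 0.53 to 5.99. The glands left out were picked by the members' own levels, so the purple intervals do not measure the spread among all glands.

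Set against the 3 contralateral glands alone, the members again did not pass. No probe set did, 0 of 6118 (0%), and an unadjusted p under 0.05 was reached by 254 with higher (4.15%) and 184 with lower levels (3.01%). Csap1 differed by 3.19 ± 1.54 (95% interval -0.13 to 6.51; limma adjusted p = 0.715), and by 2.66 ± 0.98 without the glands that stand apart (adjusted p = 0.403), where 6.03% of probe sets were higher and 3.99% lower at that unadjusted threshold. Dnase1 differed by -1.27 ± 2.03, Gp2 by 0.80 ± 1.19 and Clu by 0.83 ± 0.97 on the log2 scale (limma adjusted p = 0.918, 0.909 and 0.868). Without contralateral 1 the sign of each of these turned, to 1.11, -0.28 and -0.38, and that of Gp2 also turned with the number in the titles as a block (-0.17). For Csap1 the difference stayed above 0 with each gland left out, 1.59 to 4.26.

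Glands with equal numbers in their titles could be set side by side in 3 pairs. Csap1 was higher in the experimental gland of each pair, by 2.10, 3.82 and 1.41 on the log2 scale, the first with contralateral 1 at the floor and so understated. With the number as a block its difference was 2.44 ± 0.45 (limma unadjusted p = 0.000515, adjusted p = 0.592). Dnase1 differed by -0.92, 2.19 and -2.11 in the pairs, Gp2 by -0.71, -0.06 and 0.26, and Clu by 0.62, -0.48 and 1.43, without a common direction. Contralateral 1 and experimental 1, which share a number, both belong to the set with high Dnase1, and the labels do not say whether a number marks an animal.

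Contralateral glands were also set against the unoperated and sham glands. The 95% interval of the log2 difference ran from -7.47 to 3.47 for Dnase1 (second probe set -9.01 to 3.36), from -2.48 to 3.93 for Gp2, from -1.96 to 3.29 for Clu and from -3.97 to 4.33 for Csap1 (limma adjusted p = 0.981 for the first 3 genes and 0.995 for Csap1). No probe set passed, 0 of 6118 (0%), and an unadjusted p under 0.05 was reached by 93 with higher (1.52%) and 206 with lower levels (3.37%), and without the 3 glands by 2.97% and 2.14%. The sham and unoperated glands themselves differed widely, with 721537 and 11714 for Dnase1 and 397 and 4022 for Csap1, each from 1 gland.

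Within the set of 3 glands the single denervated gland had less Dnase1 than either control, 329146 against 621186 and 721537, less Gp2, 385 against 631 and 429, and more Csap1, 670 against 66 and 397. Clu in experimental 1, 17647, was close to the sham gland, 17410. These are values of single glands with no replicate.

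The genes with profiles most like each member were found among 4996 probe sets of 3617 genes by the root mean square difference of median-centred log2 intensity over the 10 glands. All of these points come from the same 10 arrays. Gp2 lay closest to Dbp (0.68), Myh11 (0.80), the peptidase Cpq (0.82), the growth arrest gene Gadd45a (0.86) and the prion protein gene Prnp (0.91), and Clu was 0.85 from Gp2. Clu lay closest to galectin-3, Lgals3 (0.52), the copper carrier Cp, ceruloplasmin (0.64), Prnp (0.68), the macrophage elastase Mmp12 (0.70) and the hyaluronan receptor Cd44 (0.73). Csap1 lay closest to Mia, a small secreted protein (1.02), the cell cycle gene Ccnd1 (1.22), Myh11 (1.34), the actin-binding protein Tagln of smooth muscle (1.36) and the transporter Slc44a4 (1.42). Experimental 2 and 5, the glands highest for Csap1, were also the highest for Mia, with log2 intensities of 15.60 and 15.67 against 13.47 or less elsewhere.

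Dnase1 had the largest distances to its nearest genes. These were the carboxylesterase Ces1d (1.90), the asialoglycoprotein receptor Asgr1 (1.97), Smim5 (2.03), haptoglobin, Hp (2.07), and Rps2-ps1 (2.12), and Ces1d spanned 5.01 on the log2 scale over the glands against 9.89 for Dnase1. Each of these genes was at the floor in some glands outside contralateral 1, sham and experimental 1. Their spans and distances are therefore set in part by the floor. With its sign turned, the Dnase1 profile was 1.88 from Gp2, 1.87 from Clu and 2.66 from Csap1, which the choice of members sets in part. Cpq, Gadd45a, Prnp and the glutathione transferase Mgst1 were among the 20 nearest genes of Gp2, Clu and Csap1 alike. Of these, Gadd45a was at the floor in contralateral 1, sham and experimental 1.

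**Figure D3:**
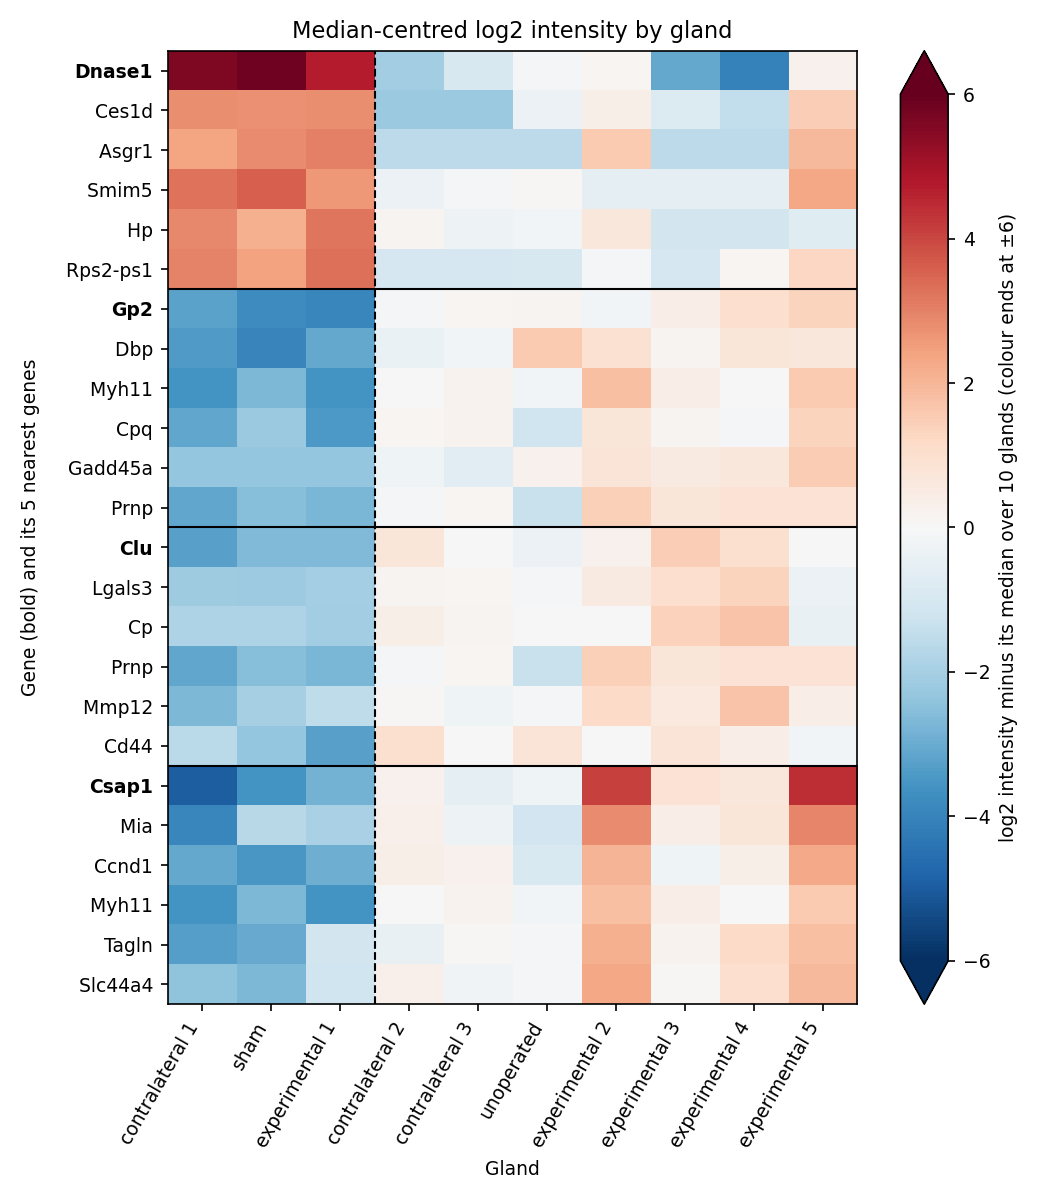
Log2 intensity minus its median over the 10 glands (colour, red above and blue below the median) for each member (bold) and its 5 nearest genes (rows) in each gland (columns), with contralateral 1, sham and experimental 1 left of the dashed line. Dnase1 spans 9.89 on the log2 scale its nearest gene 5.01, while the rows under Gp2 and Clu follow them within a root mean square difference of 0.91.

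Related genes were taken from fixed lists, each gene by its brightest probe set. Of 37 digestive and zymogen granule genes, 28 were on the array and 14 passed the filter on dim probe sets. None passed the test in denervated against control glands. An unadjusted p under 0.05 by limma was reached by 0 genes upward and 2 downward, against 5.02% and 4.66% of all tested probe sets. The median log2 difference was -0.48 against -0.08 over all tested probe sets. Ctrc, Sycn and Reg3g were higher in contralateral 1, sham and experimental 1 than in all other glands, as Dnase1 was, 3 of 14 against 9.09% of all. Chymotrypsin C, Ctrc, had 2872, 3055 and 1042 there and 192 to 1021 elsewhere. The acinar transcription factor Bhlha15 overlapped. It was highest in contralateral 1 (103013) and experimental 1 (67549), but the sham gland had 35787. Contralateral 2, contralateral 3 and experimental 3 lay above the sham gland with 40756.5, 46468 and 39550, and experimental 2 and 5 had 4464 and 6321.

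The zona pellucida domain family, to which Gp2 belongs, had 5 of 7 measured genes past the filter, none of which passed the test. Umod, uromodulin, which stands next to Gp2 in the RefSeq gene order, had 2041 in contralateral 1, where Gp2 was low, and 2406 in the unoperated gland, where Gp2 was high, and overlapped between the 3 glands and the other 7. Dmbt1, a mucosal scavenger receptor of this family, had a log2 difference of 1.53 ± 0.36 between denervated and control glands (limma adjusted p = 0.434), and 2.28 ± 0.41 at its other probe set (adjusted p = 0.384). Of 4 nucleases past the filter none passed. Rnase4 (0.94 ± 0.42) and Apex1 (0.60 ± 0.26) were 2 higher at an unadjusted p under 0.05 by limma, against 5.02% of all tested probe sets. The others, Rnase1 (0.16 ± 0.67) and Fen1 (0.06 ± 0.35), did not reach it. Dnase1l3, the nuclease most like Dnase1 on the array, was too dim to test. Actb and Actg1, the actins that bind and inhibit Dnase1, had ranges of 0.99 and 2.06 on the log2 scale over the glands and overlapped between the 3 glands and the other 7.

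Among extracellular chaperones, lipid carriers and Clu receptors, 11 of 12 measured genes passed the filter and none the test. Haptoglobin, Hp, and the protease inhibitor A2m were higher and the endocytic receptor Lrp2 lower in contralateral 1, sham and experimental 1 than in all other glands at their main probe sets. These were 2 of 11 higher and 1 of 11 lower, against 9.09% and 4.46% of all tested probe sets. A second A2m probe set, X13983mRNA_at, was also higher in the 3 glands, while 2 further A2m probe sets past the filter and 2 of Lrp2 overlapped. Hp had 2514, 1473 and 3132 in these glands and 65.5 to 542 in the others. Apoe, a lipid carrier of the same list, had a log2 difference of 1.78 ± 0.50 in denervated against control glands (limma adjusted p = 0.434). Of 5 secretoglobins and androgen-dependent secretory genes past the filter, Scgb2a1 was under the floor in contralateral 1, sham, experimental 1, experimental 2 and experimental 5 and had 74352 to 360033 in the other 5 glands. The glands with Scgb2a1 under the floor were the 3 lowest and the 2 highest for Csap1.

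Genes that lie within 10 genes of a member on either side in the RefSeq gene order numbered 19 with a probe set past the filter, measured by 27 probe sets. One probe set, of Pnoc near Clu, was higher and 1, of Trap1 beside Dnase1, was lower in the 3 glands than in the other 7, which is 2 of 27 against 13.6% of all tested probe sets. The 2 other Pnoc probe sets overlapped. Sbp, the prostate spermine-binding protein gene beside Csap1, had 35.2 to 927 over the glands, with 806 in contralateral 1, where Csap1 was lowest.

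The labelled tissue was checked against its markers, and in whole glands fewer cells of a type and less RNA per cell cannot be told apart. All 8 measured lacrimal acinar markers passed the filter, among them Pip, a tear protein, with 104315 to 1474250, and Aqp5, the water channel. Exocrine pancreas markers were dim, with 5 of 12 past the filter and a summed intensity of 3080 to 7720. Parotid and other salivary markers had 7 of 10 past the filter and 3 at or under the floor in at least 5 glands. Their sum was 58620 to 63164 in contralateral 1, sham and experimental 1 and 73507 to 329257 in the other 7 glands. Of these markers Smr3a had 202.5 to 1975 in the former and 33.6 to 229314 in the latter, where experimental 2 and 5, the glands highest for Csap1, had 33.6 and 178. The sums of experimental 2 and 5 were largely Cst3, with 72009 and 66580. Car6, another marker of the list, had 1527 and 1728 in them. In contralateral 1, sham and experimental 1, Cst3 had 17545, 13071 and 20421, and Car6 had 27793, 16562 and 27344. The order of the sums thus does not hold for each marker. Of the myoepithelial markers, 6 of 7 passed, and Acta2, Myh11 and Krt5 were lower in the same 3 glands than in all others at their main probe sets, 3 of 6 against 4.46% of all tested probe sets. Cnn1, Krt14 and Tagln overlapped at theirs. A further probe set of Acta2 and one of Myh11 overlapped, while another of Acta2 and one of Tagln were lower in the 3 glands. The summed intensity of the list was 12220 to 14141 in the 3 glands against 21487 to 87656 in the others. Acta2 was its brightest gene in the others, with 10449 to 41770 there and 3678 to 5412 in the 3 glands. Krt14 had 3497, 3056 and 3865 in contralateral 1, sham and experimental 1 and 2011 to 9036 in the others, so the order of the sums does not hold for each marker. In denervated against control glands, where Csap1 had its log2 difference of 3.26, none of the 6 passed, 4 were upward at limma's unadjusted threshold of 0.05, against 5.02% of all, and their median log2 difference was 1.13 against -0.08 over all tested probe sets. Krt5, a basal and myoepithelial keratin, had 18820 and 13023 in experimental 2 and 5, the glands highest for Csap1, and 1446 to 3641 in the other 8. Transthyretin and albumin, 2 of 5 liver markers past the filter, were higher in the 3 glands at their main probe sets, against 9.09% of all tested probe sets. A second Ttr probe set overlapped, and the further albumin probe sets did not pass the filter. The other liver markers, Apoa1, Serpina1 and Fgb, overlapped. Apoa1 was highest in contralateral 1 (2077) and lowest in experimental 1 (249.5) and the sham gland (333), so the list has no common direction. The part of these cell types in the levels of Dnase1, Gp2, Clu and Csap1 was not tested.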

How the data were processed

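The authors deposited linear probe set intensities, 1 value per gland for 8799 probe sets. The software behind them is not given in the sources used here. Array means after trimming 2% of values from both tails were 2505 to 2507, so the deposited values share a scale, which was kept. Intensities under the 20th percentile, 156.2, were raised to this floor before taking log2, so differences at the floor are understated. Of 8740 probe sets that are no array controls, 6118 exceeded the 30th percentile of mean log2 intensity and were tested with limma 3.58.1 in R 4.3.3 (eBayes with a variance trend, two-sided, Benjamini-Hochberg over all of them, threshold 0.05). All 5 member probe sets passed this filter. One fit had 2 classes, and another had 3, denervated, contralateral, and unoperated with sham. The steps were tested on simulated data. The number of arrays limits the precision. Of the 8740, 7006 carried 1 symbol, 308 several and 1426 none.

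Named are the 5 nearest genes of each member and genes among the 20 nearest of at least 3 members. From each list those that pass or up to 4 with the widest range were to be named, but the naming did not keep to this. Some wide genes are left out, such as Cpa3 (4.90) and Apob (4.27 on the log2 scale). List genes that set the 3 glands apart or are named for their difference after denervation were picked after their values were seen. The same holds for neighbours and genes named by their gap. The members and lists were chosen with earlier results of these data known. Glands with the same title number deviated together from their group means, with correlations across probe sets of 0.46, 0.11 and 0.25 for numbers 1, 2 and 3, so the numbers were treated as pairs in an alternative. Contralateral 2 had a higher correlation with experimental 3 (0.26) than with experimental 2. The 0.46 is between 2 glands of the set that stands apart. The correlations therefore do not establish that equal numbers mark pairs. Figures were drawn with matplotlib 3.10.9.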

Additional observations from a re-analysis of the deposited data

Results flagged for a closer look

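In the denervated group, experimental 1 lay apart from the others for Gp2, by 0.711 of the group's whole range on the log2 scale. This is a description and no test, since Gp2 was chosen for its low level in experimental 1 among other glands. At the other member probe sets experimental 1 lay apart by 0.373 to 0.638 of the range.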

How the results depend on the processing

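No member passed the threshold under any of the alternatives run, and the gaps that set the 3 glands apart kept their sign under quantile and median scaling. Leaving out single glands, the log2 difference of denervated and control glands was 0.48 to 2.00 for Gp2, 0.55 to 1.76 for Clu, 2.48 to 4.33 for Csap1, and -3.35 to -1.03 and -4.17 to -1.58 for the Dnase1 probe sets. The number of probe sets past the threshold was 0 to 70. It was 70 (48 higher, 22 lower) only without experimental 1, which leaves contralateral 1 and the sham gland among the controls. Against contralateral glands these ranges were -0.28 to 1.71 for Gp2, -0.38 to 1.62 for Clu, 1.59 to 4.26 for Csap1, and -2.74 to 1.11 and -3.40 to 0.85 for Dnase1. For contralateral minus unoperated and sham glands they were -1.26 to 2.71 for Gp2, -0.50 to 1.88 for Clu, -1.49 to 1.85 for Csap1, and -4.97 to 0.97 and -5.30 to -0.60 for Dnase1, with 0 to 1 probe sets past the threshold, a lone sham or unoperated gland being assumed to vary like the other groups. With the replicate block Gp2 turned to -0.17 in both comparisons with denervated glands, and the block changed no call. In the last comparison Csap1 turned to -0.12 with the floor at the 10th percentile, and Gp2 to -0.18 without contralateral 1, sham and experimental 1, and without a filter 7 probe sets passed. Denervated against contralateral glands, 1 probe set, no member, passed without a variance trend and 1 with array weights. The cause of these changes was not tested. Median scaling moved the median difference over all tested probe sets from -0.08 to 0.04 for denervated minus control and from -0.15 to 0.18 for contralateral minus unoperated and sham glands. By Pearson correlation in place of root mean square difference, 7 to 12 of the 20 nearest genes of a member were shared.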
